A study of Mus musculus with 15 samples.

Results

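Receptors for monoamines, acetylcholine and neuropeptides carry modulatory signals into the nucleus accumbens, the ventral part of the striatum that serves reward. Here their genes were followed through maps of histone H3 and of ACF1, the accessory subunit of the ACF chromatin remodelling complex. A gene was a member if the H3 tables named it outside chromosome 1 with a symbol of the dopamine (Drd), serotonin (Htr), adrenergic (Adra, Adrb), muscarinic (Chrm), nicotinic (Chrn), opioid (Opr), corticotropin-releasing factor (Crhr), neuropeptide Y (Npy with a digit), somatostatin (Sstr), tachykinin (Tacr), orexin (Hcrtr) or cannabinoid (Cnr) receptors. The kinase genes Adrbk were left out. This gave 26 genes of the 6691 named outside chromosome 1 and of 7814 named in all, with 60 distinct H3 positions among them. As 10 of these stood in 2 occupancy tables, the tables hold 70 listings of receptor gene positions, and counts over tables below are of listings. The share of all positions that stood in 2 tables is not given here. Positions shared between tables are therefore described below without a background.

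The animals were C57BL/6 mice. Susceptible and resilient mice had met an aggressive CD1 mouse for 10 min on each of 10 days, with sensory contact in between, and a social interaction test then sorted them. Control mice carry that label without further detail of their handling, and ages and sexes are not given in the labels. Nucleus accumbens punches from 10 mice were pooled per replicate 48 hours after the last defeat, so all cell types of the punch contribute. Of 15 samples, 6 had files: 3 for H3 on micrococcal nuclease digested chromatin and 3 for ACF1 on sheared chromatin, 1 per group. The SNF2H and input samples were not analysed here.

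Each of the authors' deposited H3 tables, from which all positions below come, compares a pair of groups and lists positions the authors had selected, marked Up or Down, or with a shift in bp. Up is taken as higher H3 occupancy in the group named first. The files do not state this, and under the opposite reading every direction below turns round. The tables hold no size of change, p-value, depth or level per library, and each pair of groups has 1 table. No spread between replicates could be taken, so no difference below was tested, and the identity of the tissue could not be checked against marker levels. Each pair of tables shares a group, so 1 library can place the same position in both. Positions are on mm9, with gene bounds as the tables give them. No exon annotation of that build was used here, so exons and introns are not told apart.

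Most of these receptors are G protein-coupled. Those coupled to Gi or Go lower cyclic AMP and open potassium channels, those coupled to Gs raise cyclic AMP, and those coupled to Gq release calcium from internal stores. Nicotinic receptors and the serotonin 5-HT3 receptor are instead ion channels that open on binding their transmitter. In the accumbens, dopamine, acetylcholine from local interneurons, serotonin, noradrenaline, opioid peptides and tachykinins act through them on medium spiny neurons and their inputs.

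A somewhat larger share of receptor genes than of all genes had a listed position. The difference was not tested, and the genes were not matched for length. RefSeq (GRCm38.p6, used for names) holds 67 protein-coding genes of these families outside chromosome 1, and the occupancy tables named 26 of them (38.8%), beside 29.2% of all 20696 protein-coding genes. In susceptible against control 12 of the 67 had a position (17.9%), beside a background of 16.0%. In resilient against control it was 16 (23.9%, background 16.0%), and in resilient against susceptible 13 (19.4%, background 14.4%). Named genes made up 6 of 12 serotonin, 6 of 14 nicotinic, 3 of 9 adrenergic, 2 of 3 opioid, 1 of 5 dopamine and 1 of 5 muscarinic receptor genes. No position was listed at either cannabinoid receptor gene, Cnr1 or Cnr2, nor at Drd1, Drd3, Htr1a, Htr1b, Htr2c, Chrm4 or Crhr1.

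Most members had few positions. There was 1 distinct position at 15 of the 26 genes, 2 at 7 genes and 3 or more at 4 genes (Chrm3, Tacr1, Htr7 and Htr1f), and 4 genes were named in all 3 occupancy tables (Chrm3, Tacr1, Htr7 and Adra1b). The same counts over all genes are not given here, so they do not set the members apart. Chrm3 with 17 listings and Tacr1 with 11 held 40% of the 70. Across members, longer genes had more listings (Spearman's rho 0.43 over 26 genes), as across all 6605 genes with an occupancy position (0.47). These are descriptions, since all genes share the same libraries. Member lengths ran from 1.39 kb at Sstr4 to 484 kb at Chrm3, with a median of 30.5 kb beside 37.2 kb over all genes with a position. The median number of listings was 1 in both.

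**Figure D1:**
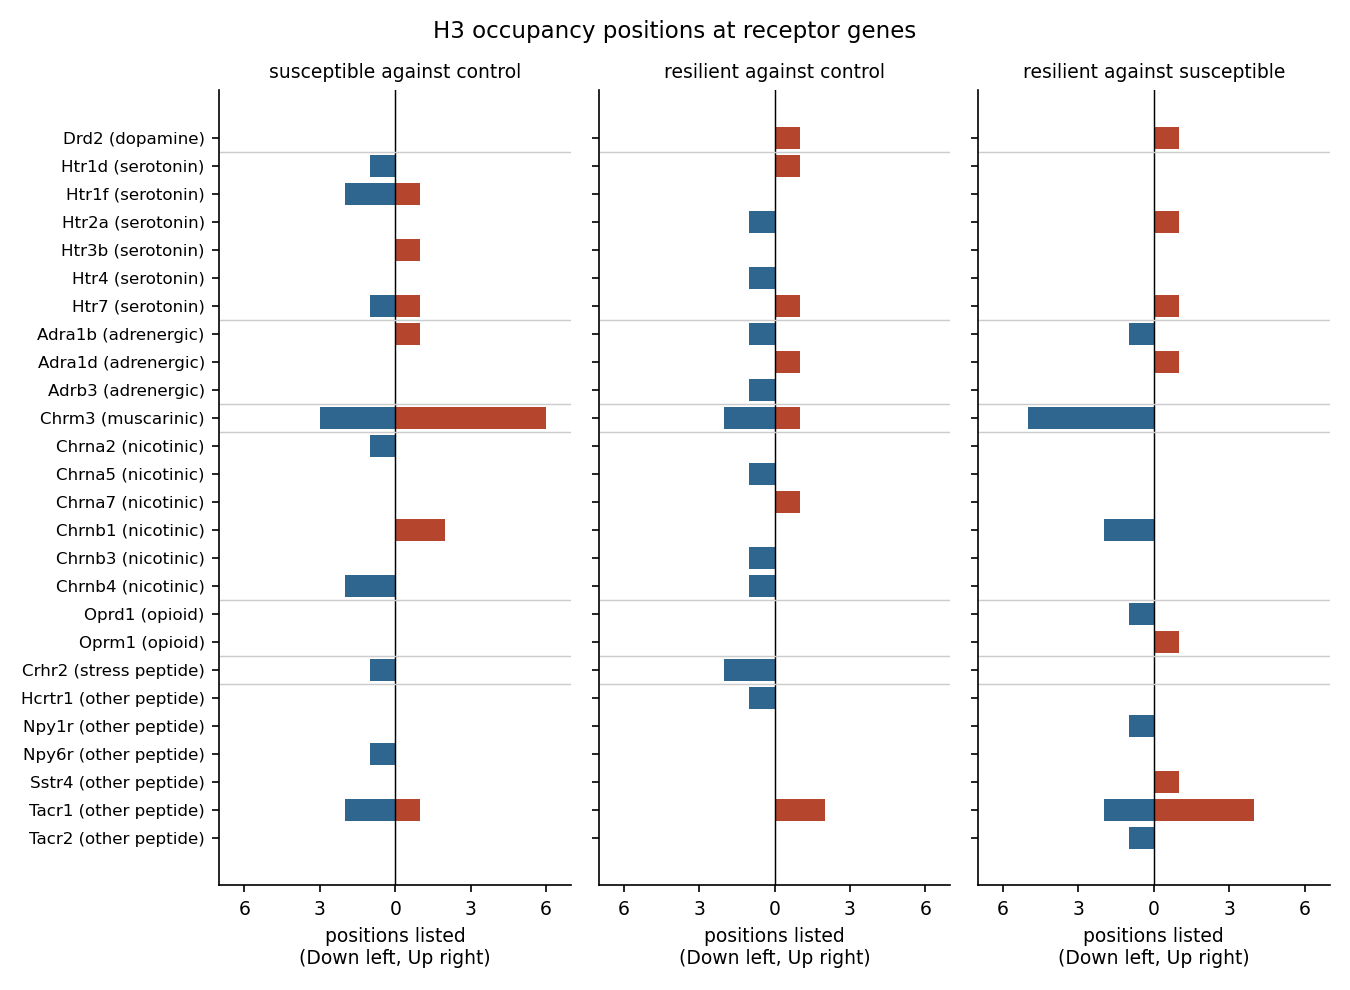
Number of listed H3 occupancy positions at each of the 26 receptor genes (rows, grouped by family) in the 3 tables (panels), with Down positions drawn to the left and Up positions to the right of 0. In susceptible against control Chrm3 has 6 Up and 3 Down positions, its 5 in resilient against susceptible are Down, and most other genes have 1 or 2 positions in a table.

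**Figure D2:**
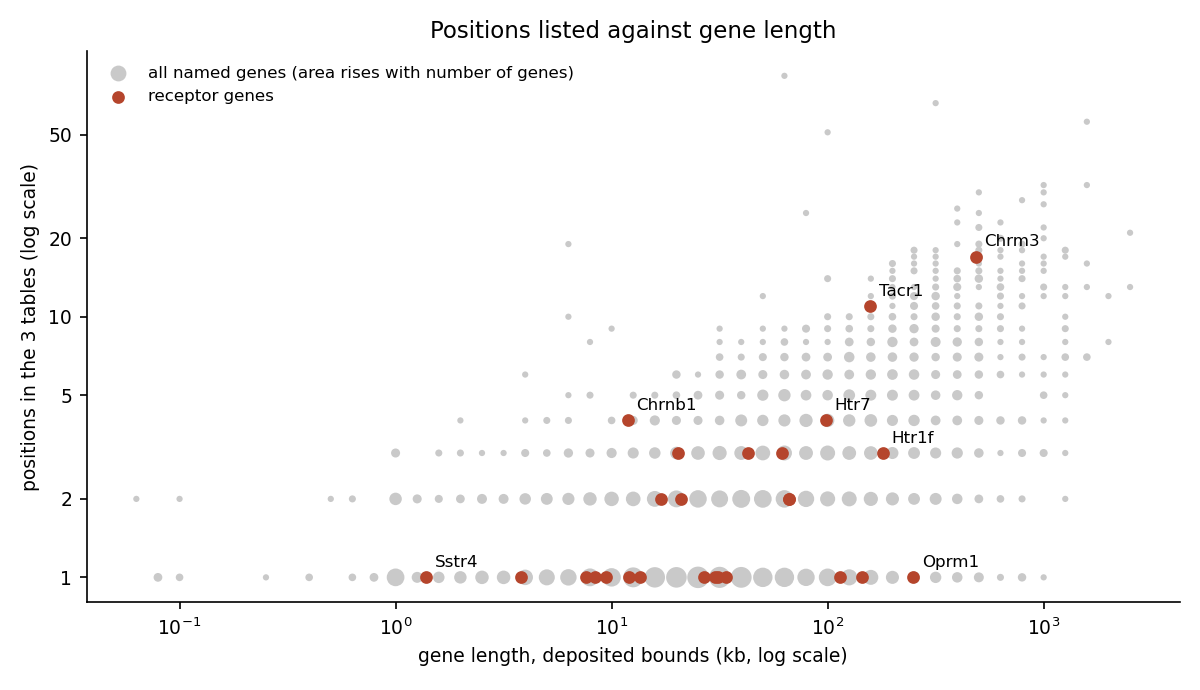
Positions summed over the 3 occupancy tables against gene length in kb, both on log scales; grey points are all named genes, larger where more genes share a length and count, and red points are the 26 receptor genes. A position in 2 tables counts in each. Chrm3 (17 listings, 484 kb) and Tacr1 (11 listings, 158 kb) stand above the other receptor genes, 14 of which have 1 listing.

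Dopamine receptors were represented by Drd2 alone. It encodes the Gi-coupled D2 receptor, which marks the indirect-pathway medium spiny neurons and also serves as the autoreceptor of dopamine neurons. Drd2 spans 49148766 to 49215319 of chromosome 9 on the plus strand (66.6 kb). The authors' deposited tables list 1 position there, 49212342, which lies 63.6 kb from the gene start, 95.5% of the way along the gene. It was Up in resilient against control and Up in resilient against susceptible, and no Drd2 position was listed in susceptible against control. The resilient library is common to both of those tables.

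Serotonin receptor genes held 13 listings over 6 genes, 7 Up and 6 Down. By table this was 3 Up of 7 in susceptible against control, 2 Up of 4 in resilient against control and 2 Up of 2 in resilient against susceptible. Htr7, which encodes a Gs-coupled receptor (chromosome 19, 36033218 to 36131850, minus strand), was named in every table. Its position 36118272, 13.6 kb from the start, was Up in resilient against control and Up in resilient against susceptible. In susceptible against control, other positions were listed: 36058242 was Up at 73.6 kb and 36043892 Down at 88.0 kb, both nearer the end of the gene.

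Htr2a, the Gq-coupled target of many antipsychotics and psychedelics, had neighbouring positions of opposite direction on chromosome 14. At 75064922 it was Down in resilient against control, and at 75068412 it was Up in resilient against susceptible. Htr1d, a Gi-coupled autoreceptor gene on chromosome 4, was Down at 135993392 in susceptible against control and Up at 135995822, 2430 bp away, in resilient against control. Htr1f, of the same Gi-coupled class, had its 3 positions in susceptible against control, 2 Down and 1 Up, spread over a gene of 181 kb. Single positions were Up at Htr3b, a channel subunit gene, in susceptible against control and Down at the Gs-coupled Htr4 in resilient against control. No direction was thus common to the 6 serotonin receptor genes.

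Adrenergic receptor genes had most of their listed positions near the gene start. Adra1b, which encodes a Gq-coupled receptor (chromosome 11, 43588107 to 43649834, minus strand), had 1 position in both tables with susceptible mice, 43647592, Up against controls and Down where resilient mice are named first. It lies 2.24 kb inside the gene and is classed with the promoter by the authors. A second Adra1b position, 43613182, at 36.7 kb, was Down in resilient against control. Adra1d, a close relative on chromosome 2, had positions before its start. These were 131390002, Up in resilient against control at -1.98 kb, and 131390882, Up in resilient against susceptible at -2.86 kb, 880 bp apart. Adrb3, the Gs-coupled receptor best known from fat tissue, was Down in resilient against control at 28339882 of chromosome 8. That position is 178.5 bp after the gene start and is the 1 member position in the authors' proximal promoter class.

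Promoter classes, which reach 3 kb around a start as the class names put it, held 8 of the 70 listings, at 6 genes. By table these were 3 of 27, 2 of 20 and 3 of 23, beside 13.5%, 12.7% and 12.2% of positions at all named genes, shares near those of the receptor genes. The remaining promoter positions were at Chrnb4 (-900.5 bp, Down in susceptible against control), Chrna2 (1055.5 bp, Down in susceptible against control) and Sstr4 (-1330.5 bp, Up in resilient against susceptible). Promoter sequence from RefSeq (GRCm38.p6) was at hand for 3 of these 6 genes and is shown to let their base composition be compared. Each line gives the 250 bases before an annotated start, 5′ to 3′ on the gene's strand, with CpG dinucleotides in capitals. The listed positions lie outside these windows, and their mm9 coordinates do not apply to this build.
Chrnb4, chr9:55048545-55048794, minus strand: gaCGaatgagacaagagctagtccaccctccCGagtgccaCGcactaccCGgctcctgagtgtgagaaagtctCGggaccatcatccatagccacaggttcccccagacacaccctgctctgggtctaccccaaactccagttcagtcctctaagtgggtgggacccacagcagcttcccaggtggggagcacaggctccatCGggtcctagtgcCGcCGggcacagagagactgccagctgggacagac
Sstr4, chr2:148395127-148395376, plus strand: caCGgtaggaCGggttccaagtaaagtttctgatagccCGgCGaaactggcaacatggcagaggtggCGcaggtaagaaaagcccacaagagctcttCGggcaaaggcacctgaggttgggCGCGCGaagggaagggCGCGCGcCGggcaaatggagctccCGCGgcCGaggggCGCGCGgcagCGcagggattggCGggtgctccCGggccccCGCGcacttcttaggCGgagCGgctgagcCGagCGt
Adra1b, start nearer the gene end, chr11:43836490-43836739, minus strand: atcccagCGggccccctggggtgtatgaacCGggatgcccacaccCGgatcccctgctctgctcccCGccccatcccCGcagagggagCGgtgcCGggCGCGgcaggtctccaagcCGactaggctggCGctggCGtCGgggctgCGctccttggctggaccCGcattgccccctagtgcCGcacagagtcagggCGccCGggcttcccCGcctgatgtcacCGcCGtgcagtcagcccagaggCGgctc
Adra1b, start farther from the gene end, chr11:43901238-43901487, minus strand: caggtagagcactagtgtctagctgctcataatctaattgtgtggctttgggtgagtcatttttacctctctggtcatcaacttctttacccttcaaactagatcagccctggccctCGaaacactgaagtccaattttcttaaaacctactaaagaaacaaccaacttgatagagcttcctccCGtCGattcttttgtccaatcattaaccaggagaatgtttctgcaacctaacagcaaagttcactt

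The windows differed widely in CpG content. Sstr4 held 28 CpG dinucleotides and the first Adra1b window 22, against 8 at Chrnb4 and 3 in the second Adra1b window, beside a median of 6 over all 32851 RefSeq windows. GC content was 67.2%, 72.8%, 61.2% and 41.6%, beside a median of 52.4%. None of these windows held the cAMP response element TGACGTCA, its core TGACGT, which lies within it, or the TATA box letters TATAAA, on either strand. Over all windows of the same length, 1.55%, 6.47% and 12.4% held them. Among the 27 windows of the 20 members with an entry, TATAAA was found in 2, at Chrnb1 and Crhr2.

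Chrm3 carried more listed positions than any other member. It encodes the Gq-coupled M3 muscarinic acetylcholine receptor and spans 9875858 to 10360049 of chromosome 13 on the minus strand (484 kb). In susceptible against control it held 9 positions, 6 Up and 3 Down. The Up positions lay at 62.8, 154, 205, 219, 231 and 350 kb from the start, and the Down positions at 141, 316 and 359 kb. All Up positions but the one at 350 kb thus lay in the part of the gene nearer its start.

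Unlike susceptible against control, resilient against susceptible had no Up position at Chrm3. The gene held 5 positions there, all 5 Down, at 48.4, 74.6, 205, 427 and 448 kb. The position at 205 kb, 10155532, was listed in both, Up in the former table and Down in the latter, and the susceptible library is common to them. In resilient against control the gene held 3 positions, Up at 142 kb and Down at 270 and 315 kb. The first of these lay 1290 bp from a position that was Down in susceptible against control, and the last lay 1150 bp from another, also Down there.

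In susceptible against control Chrm3 stood high in number among genes of like length, in a band chosen after its values were seen. Of the 145 genes of 400 to 600 kb with an occupancy position, 6 held 9 or more positions in susceptible against control, Chrm3 among them, and the median was 2. In resilient against susceptible 24 of these genes held 5 or more, again with a median of 2, and in resilient against control 54 held 3 or more. Over the 3 tables together 15 of them, Chrm3 included, held 17 listings or more. The other muscarinic receptor genes, Chrm1, Chrm2, Chrm4 and Chrm5, had no position in any table.

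**Figure D3:**
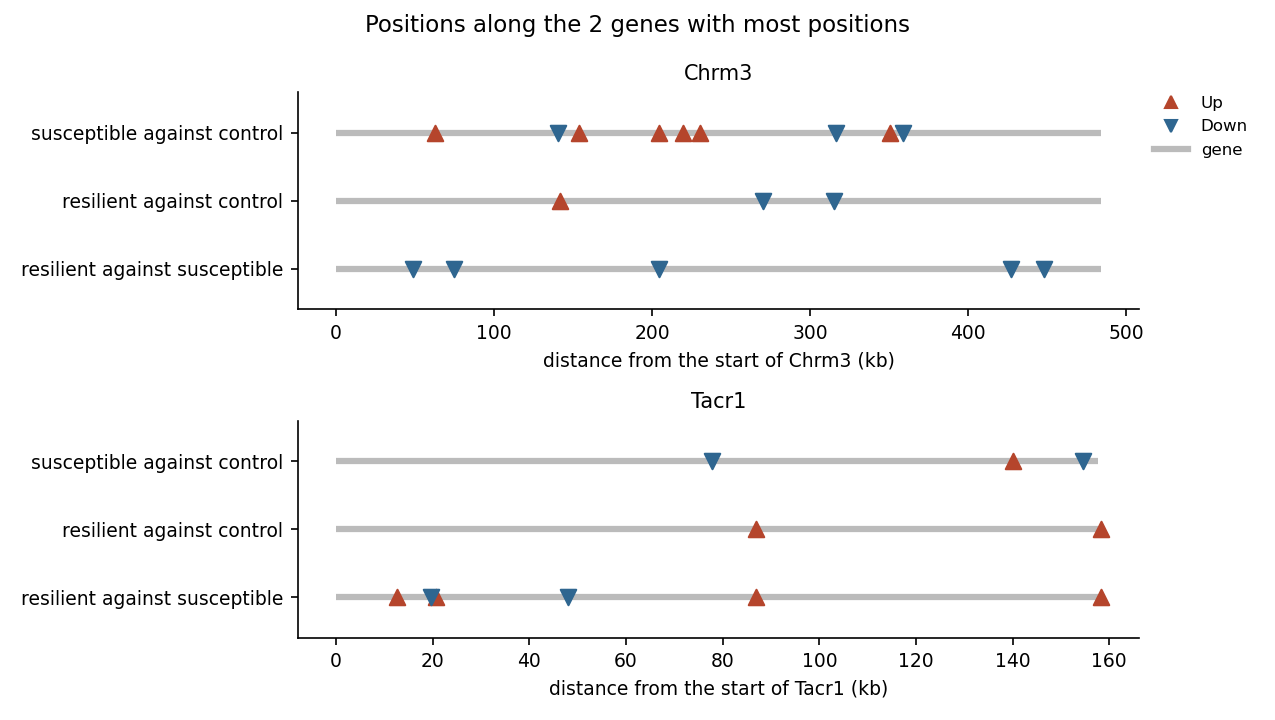
Listed positions along Chrm3 and Tacr1 in kb from the gene start, 1 line per table; triangles pointing up are Up positions, triangles pointing down are Down positions, and grey bars show the gene. All 5 Chrm3 positions in resilient against susceptible are Down, and the Tacr1 positions at 86.9 and 158 kb appear as Up in both tables with resilient mice.

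Nicotinic receptor genes held 11 listings over 6 genes, 3 Up and 8 Down. By table, 2 of 5 were Up in susceptible against control, 1 of 4 in resilient against control and 0 of 2 in resilient against susceptible. The Up positions were at Chrnb1 and Chrna7. Chrnb1, the beta subunit gene of the muscle receptor (chromosome 11, 69597537 to 69609439, minus strand), is 11.9 kb long and had positions 69603522 and 69600122, at 5.92 and 9.32 kb. Both were Up in susceptible mice against controls, both were Down in resilient against susceptible, and neither was listed in resilient against control. Chrna7, the subunit gene of the homomeric calcium-permeable receptor, had 1 position, Up in resilient against control at 99.9 kb.

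Neuronal nicotinic subunit genes, apart from Chrna7, had Down positions only, all in the tables with controls. Most positions at all named genes were Down there too, with 37.6% Up in susceptible against control and 36.7% in resilient against control. So few positions do not set these genes apart from other genes. Chrnb4 and Chrna5 flank Chrna3 in a cluster on chromosome 9 whose subunits join in 1 receptor type. Chrnb4 position 54887022, 9.33 kb from the start, was Down in both tables with controls, which share the control library. A further Chrnb4 position, 54897252, was Down in susceptible against control. Chrna5 was Down at 54843032 in resilient against control, and Chrna3 was not named. Chrna2, whose subunit marks certain interneurons, was Down at 66760852 of chromosome 14 in susceptible against control. Chrnb3, a subunit gene of dopamine neuron receptors, was Down at 28497122 of chromosome 8 in resilient against control, while its neighbour Chrna6 was not named.

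Opioid receptor genes were listed in resilient against susceptible, with 1 position each. Oprd1, the delta receptor gene, was Down at 131679232 of chromosome 4. Oprm1, which encodes the mu receptor that binds morphine, was Up at 3315542 of chromosome 10. That position is 242 kb from the gene start, 97.1% of the way along, and the deposited Oprm1 bounds overlap Ipcef1, so positions there cannot be assigned to a single gene. Oprl1, the nociceptin receptor gene, was not named.

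Crhr2 encodes the Gs-coupled receptor that binds urocortins, peptides of the stress response. It spans 55040041 to 55082966 of chromosome 6 on the minus strand, and its 2 listed positions were Down in each of their 3 listings. Position 55057662, at 25.3 kb, was Down in susceptible against control and in resilient against control, and 55060272, 2610 bp away, was Down in resilient against control. Nothing was listed in resilient against susceptible. Crhr1, the main receptor for corticotropin-releasing factor itself, was not named.

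The tachykinin receptor gene Tacr1 led the other peptide receptors. It encodes the Gq-coupled NK1 receptor for substance P and spans 82352468 to 82510098 of chromosome 6 on the plus strand (158 kb). In resilient against susceptible it held 6 positions, 4 Up and 2 Down. The Up positions lay at 12.6, 20.7, 86.9 and 158 kb and the Down positions at 19.6 and 48.0 kb, so that positions of opposite direction lay as near as 1160 bp. Those at 86.9 and 158 kb (82439392 and 82510742) were also the 2 positions of resilient against control, Up there too. In susceptible against control the gene held 3 others, Down at 77.9 and 154 kb and Up at 140 kb.

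Among genes of like length, in a band again chosen after its values were seen, Tacr1 stood high in 1 table. Of 400 genes of 130 to 190 kb, 6 held 6 positions or more in resilient against susceptible, Tacr1 among them, and 6 was the highest number. As many as Tacr1 or more were held by 45 in susceptible against control (3 or more) and by 110 in resilient against control (2 or more), with a median of 1 in each table. The remaining peptide receptor genes held 1 position each. Tacr2, for neurokinin A, and Npy1r, a Gi-coupled neuropeptide Y receptor gene, were Down and Sstr4 Up in resilient against susceptible. Hcrtr1, for orexin, was Down in resilient against control, and Npy6r was Down in susceptible against control. The positions of Hcrtr1 and Npy1r and the Tacr1 position at 158 kb lay 445 to 688 bp past the end of the deposited gene bounds, though the authors class them with the gene body.

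Directions of the receptor positions as a whole lay near those of other genes. In susceptible against control 13 of 27 were Up (48.1%), beside 37.6% at all named genes and 40.4% in the whole table. In resilient against control 8 of 20 were Up (40%, beside 36.7% and 38.3%), and in resilient against susceptible 10 of 23 (43.5%, beside 49.8% and 48.8%). Much of the difference in susceptible against control lay with Chrm3. Without it the shares Up were 38.9% of 18, 41.2% of 17 and 55.6% of 18. In the first of these tables, leaving Chrm3 out brought the share nearer to that of all named genes. In the second the share moved slightly further away, and in the last it went to the other side.

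**Figure D4:**
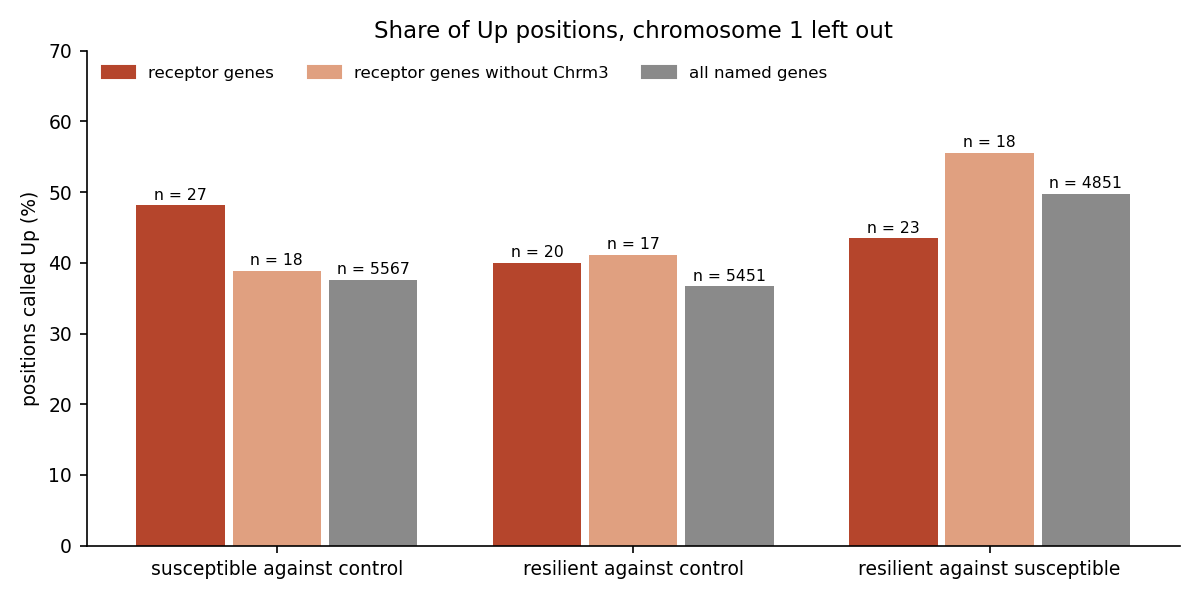
Share of listed positions that are Up, in percent, in each table for the receptor genes, for the receptor genes without Chrm3 and for all named genes outside chromosome 1, with the number of positions above each bar. Leaving out Chrm3 lowers the share from 48.1% to 38.9% in susceptible against control and raises it from 43.5% to 55.6% in resilient against susceptible.

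Grouped by coupling, the 7 Gq-coupled receptor genes held 37 of the 70 listings, 28 of them at Chrm3 and Tacr1. Their positions were Up in 8 of 13, 4 of 9 and 6 of 15 in the order of tables above. The 8 Gi-coupled genes had 1 Up of 5, 2 Up of 2 and 3 Up of 5. The 4 Gs-coupled genes had 1 Up of 3, 1 Up of 5 and 1 Up of 1, and the 7 channel subunit genes 3 Up of 6, 1 Up of 4 and 0 Up of 2. Counts this small, without replicates, do not separate the groups.

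ACF1 segments were absent from the receptor genes. The ACF1 files assign each stretch of the genome, in multiples of 200 bp, to state E1 or E2, give no score, and nothing in them says which state stands for binding; the minority state E2 was used. None of the 26 genes overlapped an E2 segment in control, susceptible or resilient mice. Among all genes named in the H3 tables outside chromosome 1, 1.81% did in controls, 2.50% in susceptible and 1.40% in resilient mice, so a set of this size would hold few in any case. The nearest segment to a member lay 6.82 kb from Htr7, in susceptible mice, where controls and resilient mice had none within 3039 kb. The susceptible file holds more segments, 1133 beside 749 in controls and 716 in resilient mice, and the median distance from a member was 1158 kb, 2700 kb and 3258 kb in that order. A segment 41.7 kb from Chrm3 was at that same distance in all 3 groups. Within 100 kb there were further segments near Chrnb3 in susceptible mice (29.2 kb) and near Npy6r in resilient mice (83.2 kb).

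Nucleosome shifts were not listed at any of the 26 genes. The authors' deposited tables held 579, 545 and 511 shifts outside chromosome 1, of which 175, 158 and 148 lay at named genes. Beside the 6691 genes named outside that chromosome these shifts are few, so a set of 26 genes would hold few in any case.

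Genes that make, move or answer to the same transmitters were listed mostly as Down in susceptible against control, as were positions at all named genes. A list of 64 such genes was used, drawn up with earlier results of these data known. The tables name 1 of them on chromosome 1. Of the 64, 31 held an occupancy position outside that chromosome. Over all protein-coding genes outside it the share was 29.2%. Genes on chromosome 1 were not taken out of the 64, whereas that share leaves them out, so the measures are not quite alike. Gene lengths were not matched and the difference was not tested. Genes of synthesis, transport and breakdown had 13 Down and 4 Up of 17 positions in susceptible against control, where 37.6% of positions at all named genes were Up. Their Down positions were 6 of 10 in resilient against control and 6 of 9 in resilient against susceptible. Among them Tph2, the enzyme of neuronal serotonin synthesis, had 3 Down of 4 in the first table and 1 Down in each of the others. Chat, which makes acetylcholine, had 1 Down position in each table. The noradrenaline transporter gene Slc6a2 had 2 Down, then 1 Down and 1 Up, then 2 Down. Ddc, the decarboxylase of dopamine and serotonin synthesis, had 2 Up in resilient against control and 1 Up in resilient against susceptible.

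G protein signalling genes had 9 Down of 11 positions in susceptible against control, 9 of 12 in resilient against control and 2 of 7 in resilient against susceptible. At all named genes 37.6%, 36.7% and 49.8% of positions were Up in that order of tables, so Down was the commoner direction in the first 2. Gnal, the G protein subunit that couples dopamine D1 receptors in striatum, had 2 Down in susceptible against control. Adrbk2, a receptor kinase gene, had 1 Down in susceptible against control and 2 Up in resilient against susceptible. Of the 30 listings of these genes, 12 were at the potassium channel gene Kcnj6 and 8 at the receptor kinase gene Grk5. In resilient against control Kcnj6 held 6 and Grk5 2 of the 9 Down positions, so that count rests mainly on these genes. Ligand precursor genes had 7 listings, among them Pnoc (prepronociceptin), Up in both tables with resilient mice, and Tac1, the substance P precursor, Down in resilient against control.

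Over the 3 groups together, an ACF1 segment overlapped 3 of the 32 list genes named outside chromosome 1. These were Grk5 in controls (800 bp) and susceptible mice (1200 bp), Kcnj6 in susceptible mice (800 bp) and Tph2 in resilient mice (1000 bp). The background given above, 1.81%, 2.50% and 1.40% of named genes, is per group and so is not a like measure. No conclusion is drawn from so few overlaps. The authors' deposited tables listed shifts at Grk5 (-60 bp, susceptible against control), at the dopamine transporter gene Slc6a3 (-80 bp, resilient against susceptible) and at Gnaq (80 bp, resilient against susceptible). With 1 result per group, none of these differences was tested.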

How the data were processed

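Per the labels' protocols, DNA from H3 or ACF1 immunoprecipitation was amplified with 15 (H3) or 19 (ACF1) PCR cycles and sequenced with 100 bp reads. The build was mm9 and CASAVA 1.8.2 was run, per the submitters' processing notes. For aligner, segmentation and H3 calling, the tools were not given in the sources used here. The authors deposited positions, directions, shifts in bp and segments, with no counts, so depth and precision are unknown. Pair and order of groups were read from the names of the deposited tables. Positions were taken by the gene named in their row, outside chromosome 1, counted per gene and table and set beside all positions. Members with at least 3 listings over the occupancy tables, a promoter position or a position in more than 1 table were described in full. Segments counted from 1 bp of overlap. Coordinates are 1-based. Members and lists were chosen with earlier results of these data known. Counting was checked on simulated rows. Python 3.11.15, pandas 2.3.3, scipy 1.17.1 and matplotlib 3.10.9 were used.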

Additional observations from a re-analysis of the deposited data

How the results depend on the processing

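Keeping chromosome 1 in raised the receptor positions of susceptible against control from 27 to 42, and added 1 shift in susceptible against control and 1 in resilient against control, where there had been 0. The other 43 of 46 alternative values stayed within 1.5 times the reported count or within the 95% binomial interval of the reported share. For so few positions that interval is wide. It also treats positions as independent, though positions of 1 gene share libraries, so it measures no spread between replicates. The alternatives covered taking positions by gene bounds, merging positions within 200 bp and leaving out Chrm3. Others asked for 200 bp of overlap with a segment, allowed 1000 bp of distance, or matched positions of different tables within 100 bp. Several of these could not move a value. Different positions of a member lay at least 880 bp apart, so merging and matching had nothing to join. No segment overlapped a member and the nearest lay 6.82 kb away, so both segment settings stayed at 0. A stricter threshold could not be tried, since the files hold no score. No paired analysis was possible because each group has 1 sample per target. Depth is unknown, so its limits cannot be given.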

Other observations

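Receptor genes on chromosome 1, left out above, were almost uniformly Down in susceptible against control. Chrnd and Chrng, adjacent genes for muscle nicotinic receptor subunits, had 7 Down of 7 and 4 Down of 4 positions, and the serotonin receptor gene Htr5b had 3 Down of 4. Over the whole of that chromosome 32204 of 32791 positions in that table were Down, so these genes share the direction of their chromosome. In resilient against control, 1 position was listed at these genes, Down at the promoter of the kappa opioid receptor gene Oprk1, and in resilient against susceptible there were 0. Chrnd also carried the receptor shifts of the tables, -80 bp in susceptible against control and 60 bp in resilient against control.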
